A study of Rattus norvegicus with 6 samples.

Results

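Cell division genes were examined in the livers of male Sprague-Dawley (Crl:CD(SD)) rats given bromodichloromethane (BDCM), a trihalomethane by-product of water chlorination, at 200 mg/kg/day, or corn oil alone. The set holds 47 rat genes, listed by symbol: 4 genes of G1 entry, 15 of DNA replication and 28 of mitosis. Of the 47, 41 had a named probe on the array and 39 were measured, out of 28995 features tested. No probe was named for Mcm5, Mki67, Top2a, Melk, Bub1b or Ect2. Gins2, a subunit of the replication fork helicase, and Aurkb, the kinase of the chromosomal passenger complex, had 1 probe each that was not well above background on all arrays of either group, Gins2 in 2 BDCM rats only and Aurkb in 1 BDCM rat only. Total liver RNA of 3 BDCM rats and 3 corn oil rats was labelled with Cy3 and read on 1-colour Agilent arrays, 1 array per rat. The rats were bought at 5 weeks of age. The exposure length is given in the labels both as 28 days and as 9 weeks, so it is not settled here, and the route is not stated in the sources used here. BDCM rat 1 and all 3 corn oil rats lay on slide 1, and BDCM rats 2 and 3 lay on slide 2.

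Most hepatocytes of an adult liver are out of the cycle and can re-enter it after injury or loss of tissue. Entry from G1 runs through D and E cyclins, whose kinases release E2F factors from the retinoblastoma protein, and E2F then switches on the genes that license origins, copy DNA and make nucleotides. Genes of mitosis are switched on later, by B-Myb and Foxm1 together with the MuvB complex, and in resting cells the DREAM complex holds down both sets, through E2F sites at replication genes and through the cell cycle genes homology region (CHR) at mitosis genes. CCAAT boxes, bound by NF-Y, often lie near the CHR.

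These motifs were looked for in the RefSeq promoter windows of assembly GRCr8, each from 250 bases before to 50 bases after a start site. Of the 47 genes, 35 had a window, 37 windows in all, since Kif2c and Cdkn3 had 2 each. The letters searched on both strands were TTTGAA for the CHR, CCAAT for the CCAAT box, and TTTGGCGC, TTTCGCGC or TTTCCCGC for E2F; 5 pairs of matches overlapped in the 37 windows. The CHR letters were in 15 of 24 mitosis windows (62.5%) and 1 of 12 replication windows (8.33%), against 18.3% of all 33469 windows. An E2F word was in 8 of 12 replication windows (66.7%) and 1 of 24 mitosis windows (4.17%), against 1.72% of all windows. At least 2 CCAAT boxes were in 14 of 24 mitosis windows (58.3%) and 4 of 12 replication windows (33.3%), against 11.2% of all windows. A match is a description of the letters, not evidence of binding. The windows of 5 genes whose values are described below show the 2 layouts. Cdk1 (chr20:19265043-19265342 on the plus strand) and Ccnb2 (chr8:79981609-79981908 on the minus strand) each hold CHR letters and 3 CCAAT boxes, and Cdk1 is the mitosis gene with an E2F word. Chek1 (chr8:44629794-44630093 on the minus strand) and Tyms (chr9:120776034-120776333 on the minus strand) hold 1 E2F word each. Mcm2 (chr4:122918045-122918344 on the minus strand) is the replication gene with CHR letters. Its 2 E2F matches overlap and begin 14 and 10 bases before the start. Each sequence runs 5′ to 3′ along its gene, and capitals mark the matches.
Cdk1: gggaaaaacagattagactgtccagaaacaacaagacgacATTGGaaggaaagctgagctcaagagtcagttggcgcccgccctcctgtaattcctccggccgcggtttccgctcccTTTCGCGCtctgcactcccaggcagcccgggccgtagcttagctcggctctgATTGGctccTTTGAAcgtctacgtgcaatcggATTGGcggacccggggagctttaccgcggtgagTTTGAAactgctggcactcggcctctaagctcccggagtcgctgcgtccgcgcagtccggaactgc
Ccnb2: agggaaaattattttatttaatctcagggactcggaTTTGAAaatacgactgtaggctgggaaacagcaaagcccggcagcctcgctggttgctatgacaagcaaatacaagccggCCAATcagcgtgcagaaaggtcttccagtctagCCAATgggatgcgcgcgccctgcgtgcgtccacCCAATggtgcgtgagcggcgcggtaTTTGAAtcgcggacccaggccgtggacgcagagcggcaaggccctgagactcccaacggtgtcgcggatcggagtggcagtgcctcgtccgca
Chek1: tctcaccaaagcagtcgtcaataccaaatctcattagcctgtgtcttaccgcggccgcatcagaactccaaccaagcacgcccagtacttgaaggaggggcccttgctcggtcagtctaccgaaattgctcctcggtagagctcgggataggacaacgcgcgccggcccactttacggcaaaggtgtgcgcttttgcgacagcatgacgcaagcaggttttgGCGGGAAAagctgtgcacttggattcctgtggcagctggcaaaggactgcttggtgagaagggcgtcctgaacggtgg
Tyms: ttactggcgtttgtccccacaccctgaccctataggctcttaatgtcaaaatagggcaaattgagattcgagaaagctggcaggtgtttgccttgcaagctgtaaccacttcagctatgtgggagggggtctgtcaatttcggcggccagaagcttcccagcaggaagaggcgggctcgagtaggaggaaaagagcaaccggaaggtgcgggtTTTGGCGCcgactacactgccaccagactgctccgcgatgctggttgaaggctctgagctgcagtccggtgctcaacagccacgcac
Mcm2: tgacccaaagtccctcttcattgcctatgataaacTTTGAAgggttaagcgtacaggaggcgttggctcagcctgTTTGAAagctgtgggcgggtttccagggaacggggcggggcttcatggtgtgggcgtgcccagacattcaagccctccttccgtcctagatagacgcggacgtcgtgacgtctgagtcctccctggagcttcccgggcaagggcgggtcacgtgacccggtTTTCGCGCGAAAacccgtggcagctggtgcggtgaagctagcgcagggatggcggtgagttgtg

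Levels are given as the log2 of a probe's signal relative to the 75th percentile of its array, so that 0 is that percentile, and differences as BDCM minus corn oil on the same log2 scale. A level describes 1 probe and is not comparable between genes. Between 65.3% and 66.9% of probes were well above background in BDCM rats, against 61.3% to 63.9% in corn oil rats. All 6 hepatocyte markers were well above background on all 6 arrays. In whole liver RNA a larger number of dividing cells and more RNA per dividing cell cannot be told apart. The 3 rats a group limit the precision of every value.

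None of the 39 measured genes passed an adjusted p of 0.05 (0 by limma, 0 by limma with trend and robust options). Over all features 9.36% were called, 5.96% higher and 3.41% lower. At an unadjusted p of 0.05, 8 of the 39 passed, against 27.5% of all features. Of the 39 genes, 31 had a difference above 0 and 8 below, with a median of 0.17, against a median of 0.0014 over all features. The 31 include Ccne2, Cdc6, Cdt1 and Kif2c. These were well above background on all arrays of the BDCM group only, so the background filter favoured a difference above 0. The values of the BDCM and corn oil rats did not overlap for 6 genes, 5 higher (Chek1, Tyms, Tk1, Mcm2 and Mad2l1) and 1 lower (Foxm1), where 34.4% of all features had groups that did not overlap, 18.4% higher and 16.0% lower. The 0 turned to 4 with normexp background correction (Chek1, Tyms and Mcm2 higher, Foxm1 lower), to 1 without corn oil rat 1 (Kif11), and to 17 with scaling by spiked-in transcripts, which moved the median of all features to 0.48. The log2 spike-in signal was 12.05 for BDCM rats 2 and 3, on slide 2. It was 12.44 to 12.56 on slide 1, BDCM rat 1 included, so slide and treatment are partly confounded in that scaling.

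**Figure D1:**
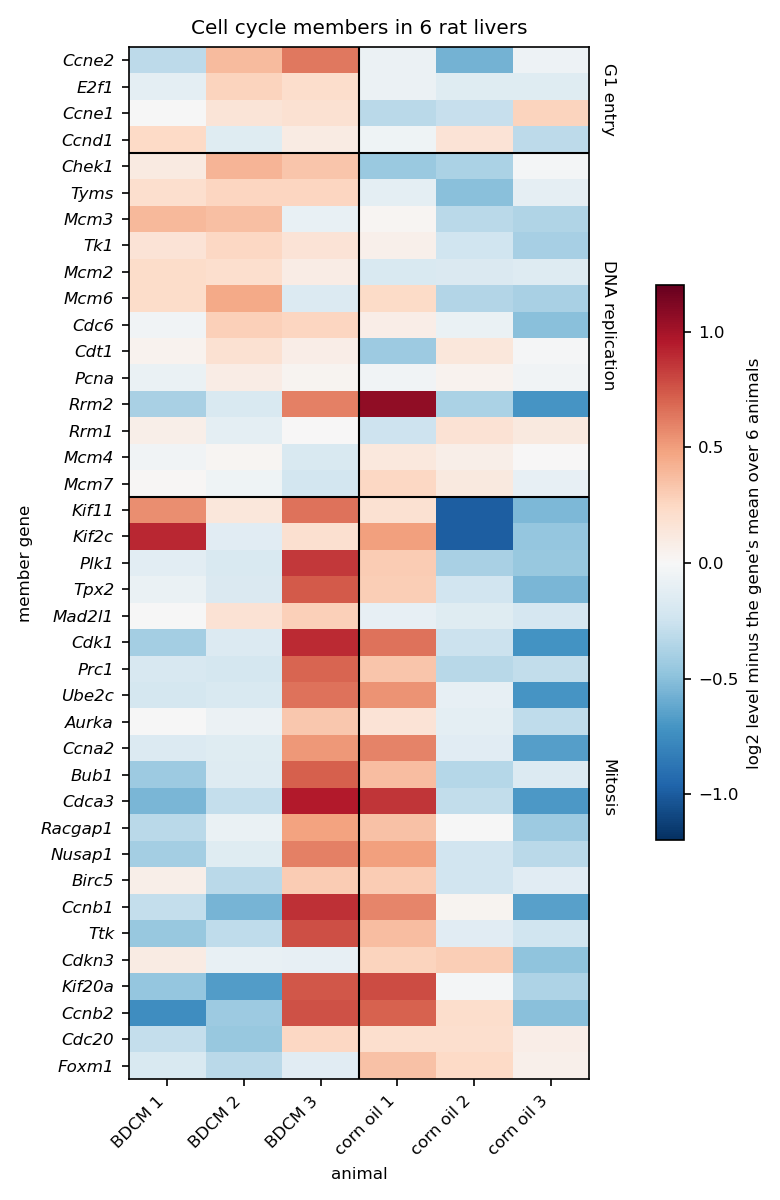
Heat map of the 39 measured genes (rows, by role and by difference) in 3 BDCM rats and 3 corn oil rats (columns). Colour is the log2 level minus the gene's own mean over the 6 rats; most mitosis rows are red in BDCM rat 3 and corn oil rat 1.

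**Figure D2:**
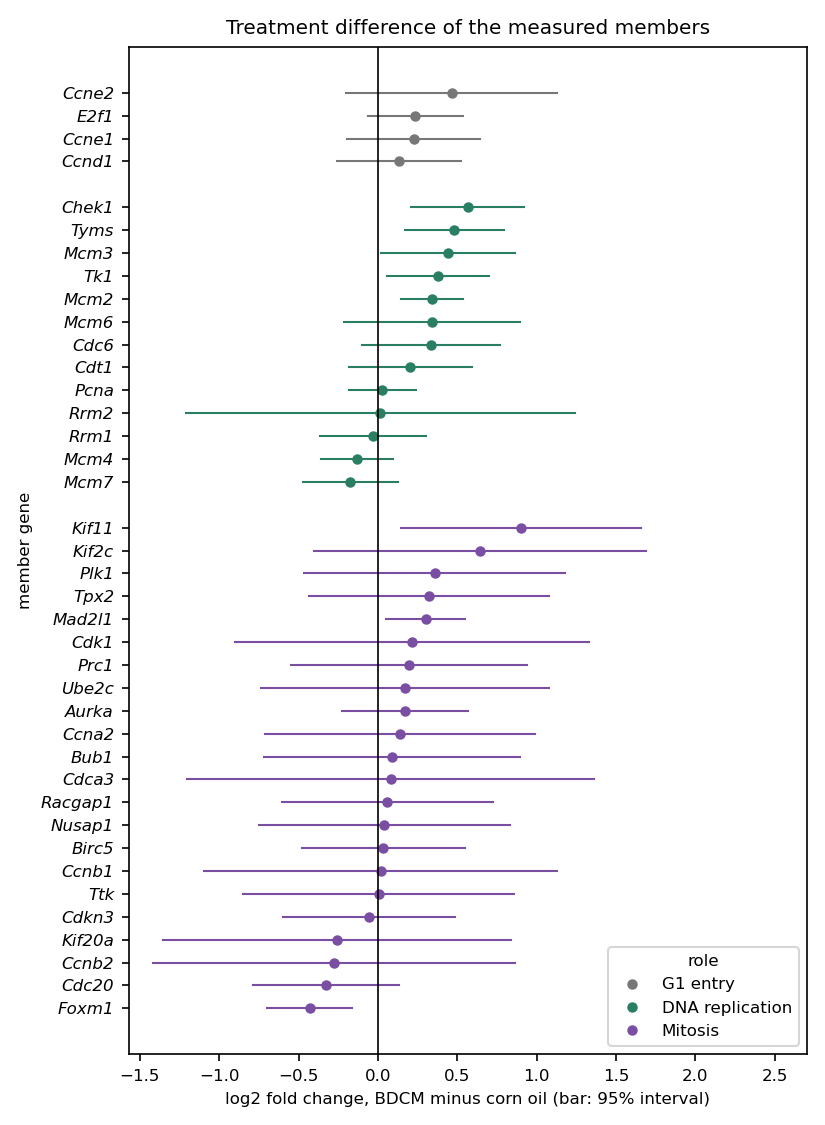
Log2 difference of each measured gene, BDCM minus corn oil, with its 95% interval from limma. Points run between -0.43 (Foxm1) and 0.90 (Kif11), and none passed the adjusted threshold.

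The 4 G1 entry genes had differences above 0, with a median of 0.23, and none passed the test. Ccnd1, the D cyclin that rises first when hepatocytes leave rest, had levels of 3.26, 2.88 and 3.12 in BDCM rats 1 to 3, against 2.97, 3.19 and 2.70 in corn oil rats 1 to 3. The groups overlapped, and the difference was 0.13 (SE 0.161, adjusted p = 0.645). Ccne2, an E cyclin that activates Cdk2 at the start of replication, had levels of -5.18, -4.48 and -4.23 in BDCM rats 1 to 3, against -4.93, -5.43 and -4.92 in corn oil rats 1 to 3. BDCM rats 2 and 3 were the highest, BDCM rat 1 lay within the corn oil range, and the difference of 0.46 (SE 0.274, adjusted p = 0.328) rests on a probe well above background in 1 of 3 corn oil rats. E2f1, a transcription factor of replication genes, had levels of -1.71, -1.32 and -1.37 in BDCM rats 1 to 3, against -1.65, -1.73 and -1.73 in corn oil rats 1 to 3. BDCM rats 2 and 3 were again the highest, with a difference of 0.23 (SE 0.124, adjusted p = 0.277), and its 3 well measured probes gave 0.17 to 0.47. Ccne1, the other E cyclin, had a difference of 0.22 (SE 0.174, adjusted p = 0.454).

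The 13 measured replication genes had a median difference of 0.33, with 10 above 0 and 3 below, between -0.17 (Mcm7) and 0.56 (Chek1). Cdc6 and Cdt1, among the 10, passed the background filter through the BDCM rats only. When probes had to be well above background on all 6 arrays, the median was 0.34. None was called, 5 passed an unadjusted p of 0.05 (27.5% of all features), and 4 had groups that did not overlap, all 4 higher, where 18.4% of all features did so. On slide 1 alone, where BDCM rat 1 is the only treated rat, the median was 0.14, and without BDCM rat 2 it was 0.20. With normexp background correction it was 0.023.

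Chek1, the kinase that slows the cycle when replication forks stall, had levels of -1.47, -1.17 and -1.25 in BDCM rats 1 to 3, against -2.03, -1.96 and -1.60 in corn oil rats 1 to 3. All 3 BDCM rats lay above all 3 corn oil rats. The difference was 0.56 (SE 0.147, adjusted p = 0.0663), and 0.39 on slide 1 alone. Tyms, which makes thymidylate for DNA synthesis, had levels of -1.04, -0.98 and -0.98 in BDCM rats 1 to 3, against -1.36, -1.74 and -1.35 in corn oil rats 1 to 3. The BDCM rats lay within 1.04-fold of each other and above every corn oil rat. The difference was 0.48 (SE 0.128, adjusted p = 0.0703), and 0.44 on slide 1 alone. Tk1, the salvage kinase of thymidine, had levels of 0.22, 0.31 and 0.22 in BDCM rats 1 to 3, against 0.12, -0.18 and -0.33 in corn oil rats 1 to 3. Its groups did not overlap and the difference was 0.38 (SE 0.132, adjusted p = 0.127), but its other well measured probe gave -0.37.

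The Mcm2 to Mcm7 proteins form the ring helicase loaded at origins. Mcm2 had levels of -1.00, -1.01 and -1.13 in BDCM rats 1 to 3, against -1.40, -1.39 and -1.37 in corn oil rats 1 to 3. The 3 corn oil rats lay within 1.02-fold of each other and below every BDCM rat. The difference was 0.34 (SE 0.0813, adjusted p = 0.053), with 3 probes between 0.25 and 0.34, and 0.39 on slide 1 alone; Mcm2 was called with median centring (0.40, adjusted p = 0.037) and when probes had to be well above background on all 6 arrays (adjusted p = 0.047). Mcm3 had levels of 0.26, 0.23 and -0.23 in BDCM rats 1 to 3, against -0.11, -0.45 and -0.49 in corn oil rats 1 to 3. BDCM rat 3 fell inside the corn oil range, and the difference was 0.44 (SE 0.175, adjusted p = 0.167). Mcm7, with the lowest difference of the replication genes, had levels of 2.03, 1.97 and 1.80 in BDCM rats 1 to 3, against 2.26, 2.13 and 1.92 in corn oil rats 1 to 3. The groups overlapped, with a difference of -0.17 (SE 0.123, adjusted p = 0.412) and -0.20 at its second probe. Mcm6 had a difference of 0.34 (SE 0.228, adjusted p = 0.387), and Mcm4 one of -0.13 (SE 0.094, adjusted p = 0.413), with 3 Mcm4 probes between -0.45 and 0.33. The 5 measured subunits of the helicase thus had 3 differences above 0 and 2 below.

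Cdc6 and Cdt1, which load the helicase, had differences of 0.33 (adjusted p = 0.283) and 0.20 (adjusted p = 0.456), each from a probe well above background in 2 of 3 corn oil rats. Pcna, the sliding clamp of the replicative polymerases, had levels of 1.21, 1.38 and 1.32 in BDCM rats 1 to 3, against 1.24, 1.33 and 1.25 in corn oil rats 1 to 3. Its groups overlapped in full, and the difference of 0.028 had a 95% interval of -0.18 to 0.24. Rrm1 and Rrm2 are the large and small subunits of ribonucleotide reductase. Rrm1 had a difference of -0.030 (SE 0.137, adjusted p = 0.914) and spanned 1.14-fold among the BDCM rats and 1.34-fold among the corn oil rats. Rrm2 had levels of -0.37, -0.16 and 0.63 in BDCM rats 1 to 3, against 1.09, -0.36 and -0.68 in corn oil rats 1 to 3. BDCM rat 3 and corn oil rat 1 stood above the rest of their groups, so Rrm2 spanned 2.00-fold among the BDCM rats and 3.42-fold among the corn oil rats, with a difference of 0.016 and a 95% interval of -1.21 to 1.24.

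The 22 measured mitosis genes had a median difference of 0.084, with 17 above 0 and 5 below, and none was called. Kif2c, among the 17, passed the background filter through the BDCM rats only. The groups did not overlap for 2 of the 22, against 34.4% of all features, and 3 passed an unadjusted p of 0.05, against 27.5%. The median was -0.20 on slide 1 alone, -0.14 without BDCM rat 3 and -0.11 without corn oil rat 3, so its direction rested on single animals. With normexp background correction the median was 0.0061. Kif11, the motor that pushes spindle poles apart, had the largest difference, with levels of -2.72, -3.14 and -2.62 in BDCM rats 1 to 3, against -3.10, -4.27 and -3.82 in corn oil rats 1 to 3. Corn oil rat 1 was above BDCM rat 2, and the difference was 0.90 (SE 0.311, adjusted p = 0.126). Without corn oil rat 1 it was 1.22 and was called (adjusted p = 0.049). Mad2l1, a spindle checkpoint protein, had levels of -1.87, -1.70 and -1.58 in BDCM rats 1 to 3, against -1.97, -2.01 and -2.07 in corn oil rats 1 to 3. All BDCM rats lay above all corn oil rats, with a difference of 0.30 (SE 0.103, adjusted p = 0.122) and 0.15 on slide 1 alone.

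Foxm1, the transcription factor that drives mitosis genes, had levels of -1.90, -2.05 and -1.86 in BDCM rats 1 to 3, against -1.37, -1.48 and -1.66 in corn oil rats 1 to 3. All 3 BDCM rats lay below all 3 corn oil rats. The difference was -0.43 (SE 0.111, adjusted p = 0.0642), the second probe gave -0.38, and slide 1 alone gave -0.40; it was called with the mean over probes (-0.40, adjusted p = 0.0449). With spike-in scaling the difference was 0.053, below that scaling's median of 0.48 over all features. Cdc20, which activates the anaphase-promoting complex, had levels of -1.12, -1.29 and -0.58 in BDCM rats 1 to 3, against -0.63, -0.63 and -0.75 in corn oil rats 1 to 3. BDCM rats 1 and 2 were the lowest and BDCM rat 3 the highest of the 6 rats, and the difference was -0.33 (SE 0.189, adjusted p = 0.319). The other 3 genes below 0 were Ccnb2 (-0.28), Kif20a (-0.26), a motor of cytokinesis, and the phosphatase gene Cdkn3 (-0.056).

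The mitosis genes varied widely between rats of the same group. The median gene spanned 1.88-fold among BDCM rats and 1.74-fold among corn oil rats, against 1.15-fold and 1.34-fold for replication genes and 1.22-fold and 1.21-fold for all features. Cdk1, the kinase that starts mitosis, had levels of -0.64, -0.40 and 0.66 in BDCM rats 1 to 3, against 0.42, -0.50 and -0.95 in corn oil rats 1 to 3. BDCM rat 3 and corn oil rat 1 were the highest of their groups, and the difference of 0.21 had a 95% interval of -0.90 to 1.33. Ccnb1, a B cyclin that activates Cdk1, had levels of -3.11, -3.37 and -1.95 in BDCM rats 1 to 3, against -2.23, -2.79 and -3.47 in corn oil rats 1 to 3. The same 2 rats led, with a difference of 0.019 and an interval of -1.09 to 1.13. Ccnb2, the second B cyclin, had levels of -3.88, -3.57 and -2.37 in BDCM rats 1 to 3, against -2.43, -2.93 and -3.64 in corn oil rats 1 to 3. It spanned 2.86-fold among the BDCM rats and 2.31-fold among the corn oil rats, again led by BDCM rat 3 and corn oil rat 1. Cdca3, which helps degrade Wee1 at mitotic entry, had levels of -2.08, -1.81 and -0.58 in BDCM rats 1 to 3, against -0.67, -1.82 and -2.22 in corn oil rats 1 to 3. Led by the same rats, it spanned 2.83-fold among the BDCM rats and 2.92-fold among the corn oil rats.

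In 19 of the 22 mitosis genes BDCM rat 3 was the highest of its group and corn oil rat 1 the highest of its group, where 13.6% of all features had both. The pair of animals was picked after the values were seen, so the count is a description. It held in 1 of 13 replication genes (Rrm2), in 22 of 49 other mitosis genes and in 7 of 47 other replication genes. The exceptions among the 22 were Cdkn3, Kif2c and Cdc20. BDCM rat 3 and corn oil rat 1 also had the lowest 75th percentile of their groups. It was 747 against 825 and 823, and 670 against 729 and 758, so the scaling raised their levels within their groups. Before scaling, the signals of Mad2l1, Foxm1 and Kif11 did not show the pattern. With scaling by spiked-in transcripts the count was 18, but these 2 rats also had the lowest spike-in signal of their groups. On the log2 scale it was 12.049 against 12.438 and 12.053, and 12.46 against 12.52 and 12.56. That scaling therefore also raised their levels within their groups, so it is not a check free of this effect. The pattern was in 26 of the 29 mitosis probes, from 21 genes, that were well above background on all 6 arrays. The mean log2 level of the 22 genes was -2.56, -2.61 and -1.84 in BDCM rats 1 to 3, against -1.98, -2.57 and -2.79 in corn oil rats 1 to 3. That of the 13 replication genes was -1.12, -1.02 and -1.10 in BDCM rats 1 to 3, against -1.16, -1.33 and -1.39 in corn oil rats 1 to 3. Their summed linear levels overlapped, at 12.2 to 12.7 in BDCM rats and 10.8 to 13.8 in corn oil rats. BDCM rat 3 shared slide 2 with BDCM rat 2, and corn oil rat 1 shared slide 1 with the other corn oil rats.

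**Figure D3:**
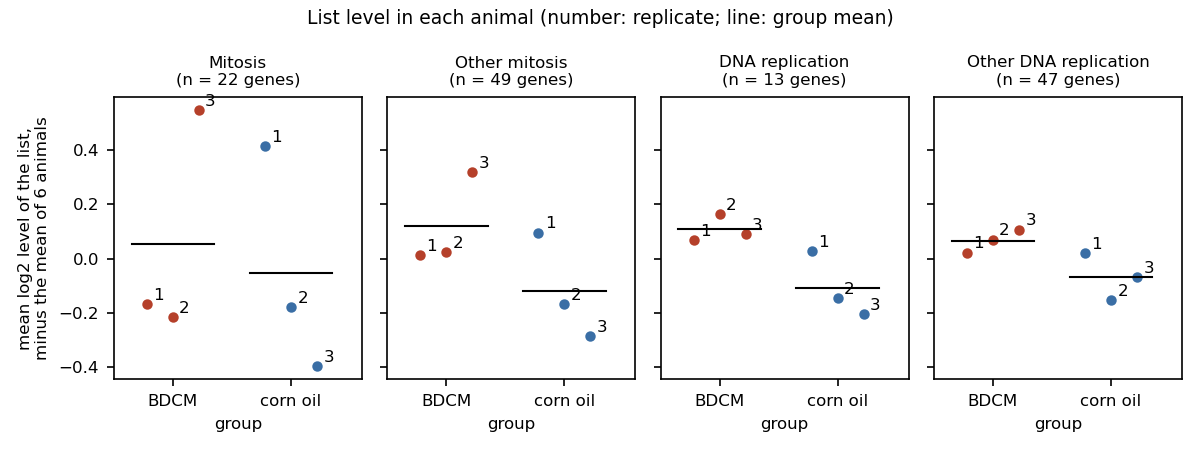
Mean log2 level of 4 gene lists in each rat, minus the mean of the 6 rats; numbers are replicates and lines group means. In the mitosis panel BDCM rat 3 and corn oil rat 1 stand above the other 4 rats. In the replication panel all BDCM rats lie above all corn oil rats, BDCM rat 1 only just above corn oil rat 1.

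The other mitosis genes followed these 2 rats to differing extents. Plk1, a kinase of spindle assembly, spanned 2.04-fold among the BDCM rats and 1.70-fold among the corn oil rats, with a difference of 0.36 (SE 0.339, adjusted p = 0.544). Bub1 and Ttk, kinases of the spindle checkpoint, spanned 2.21-fold and 2.34-fold among BDCM rats, and 1.63-fold and 1.53-fold among corn oil rats. Ccna2, the A cyclin of S phase and mitotic entry, spanned 1.61-fold among the BDCM rats and 2.39-fold among the corn oil rats. Ube2c, the ubiquitin-conjugating enzyme of the anaphase-promoting complex, spanned 1.82-fold among the BDCM rats and 2.37-fold among the corn oil rats. Aurka, a centrosomal kinase, was the mildest of these, spanning 1.31-fold among the BDCM rats and 1.39-fold among the corn oil rats, with a difference of 0.17 (SE 0.165, adjusted p = 0.555). Among genes of the spindle midzone and cytokinesis, Prc1 spanned 1.89-fold among the BDCM rats and 1.59-fold among the corn oil rats, Racgap1 spanned 1.75-fold among the BDCM rats and 1.72-fold among the corn oil rats and Kif20a spanned 2.67-fold among the BDCM rats and 2.22-fold among the corn oil rats. Tpx2 and Nusap1, which organise spindle microtubules, had differences of 0.32 and 0.041, and Birc5, of the chromosomal passenger complex, one of 0.034. Kif2c, a motor that depolymerises microtubules, had a difference of 0.64 (SE 0.432, adjusted p = 0.388) from a probe well above background in 1 of 3 corn oil rats.

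The 11405 named features were ranked by the smaller of 2 gaps. These were BDCM rat 3 above the next BDCM rat, and corn oil rat 1 above the next corn oil rat. Of the first 40 features, 19 were on a cell cycle list and 12 of these were members of the set. The set gave 39 of the 11405 features, and the further cell cycle lists gave 132. The 2 rats were picked from the mitosis genes' own values, so the high places of these genes are a description, not a test. Cdca3, Cdk1, Kif20a and Rrm2 were among the first 10. Knstrn and Ckap2, spindle proteins of the other mitosis list, were in the first 20. C7h12orf54 and Tacr1, which led the ranking, were on none of the lists.

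Beside the set, 132 genes of 4 further cell cycle lists were measured, and 9 were higher and 4 lower at an adjusted p of 0.05. Read against 9.36% of all features, 13 of 132 is close to the background. The count was 0 on slide 1 alone, 2 with slide as a block and 1 to 6 without 1 rat. Mcm10, which binds the helicase at the firing of origins, had levels of -2.85, -2.60 and -2.64 in BDCM rats 1 to 3, against -0.51, -0.88 and -0.66 in corn oil rats 1 to 3. Every BDCM rat lay below every corn oil rat by more than the spread of either group, and Mcm10 fell by 2.02 on the log2 scale (limma, SE 0.13, adjusted p = 0.0028). Its second probe was not well above background in any BDCM rat and gave only an approximate bound, at least 3.65-fold lower in BDCM rats. Each BDCM rat entered with the larger of its own signal and the lowest signal well above background on its array. In BDCM rat 2 this was its own signal, 17.3 against 15.3. The Mcm10 fall at the first probe was past the threshold in 17 of 18 alternatives and was -2.17 on slide 1 alone. Rfc4, of the clamp loader, and Pold4, a polymerase delta subunit, rose by 0.42 and 0.40 (adjusted p = 0.0453 and 0.0456), and neither was past the threshold in any fit that left out a rat. With normexp background correction Rfc4 was 0.19 (adjusted p = 0.16). The other 44 of 47 measured replication genes outside the set did not pass.

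Of 49 other mitosis genes 6 were higher, 0 lower and 43 did not pass, where 5.96% of all features were higher and 3.41% lower. Wee1, the kinase that restrains Cdk1, had levels of 0.51, 0.24 and -0.042 in BDCM rats 1 to 3, against -0.75, -0.98 and -0.98 in corn oil rats 1 to 3. The groups did not overlap, and Wee1 rose by 1.14 (limma, SE 0.159, adjusted p = 0.0168), with 1.41 on slide 1 alone (adjusted p = 0.083). Wee1 did not pass without BDCM rat 2 (adjusted p = 0.07) or without corn oil rat 2 (adjusted p = 0.0653). Pkmyt1, the second inhibitory kinase of Cdk1, rose by 0.85 (adjusted p = 0.048), and with normexp background correction was 0.54 (adjusted p = 0.0597). Mybl2, which encodes B-Myb, rose by 1.28 (adjusted p = 0.0184), from a probe well above background in 1 of 3 corn oil rats. With normexp background correction the Mybl2 rise was 0.41 (adjusted p = 0.0317), so its size depended on that setting. Incenp, of the chromosomal passenger complex, Zwint, of the kinetochore, and Cdc16, of the anaphase-promoting complex, rose by 0.68, 0.46 and 0.35 (adjusted p = 0.0435, 0.0354 and 0.0464). Cdc16 did not pass with the mean over its probes (0.24, adjusted p = 0.135). In the 6 fits that each left out 1 rat, Mybl2 passed in 2, Pkmyt1 in 1, and Incenp, Zwint and Cdc16 in 0.

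**Figure D4:**
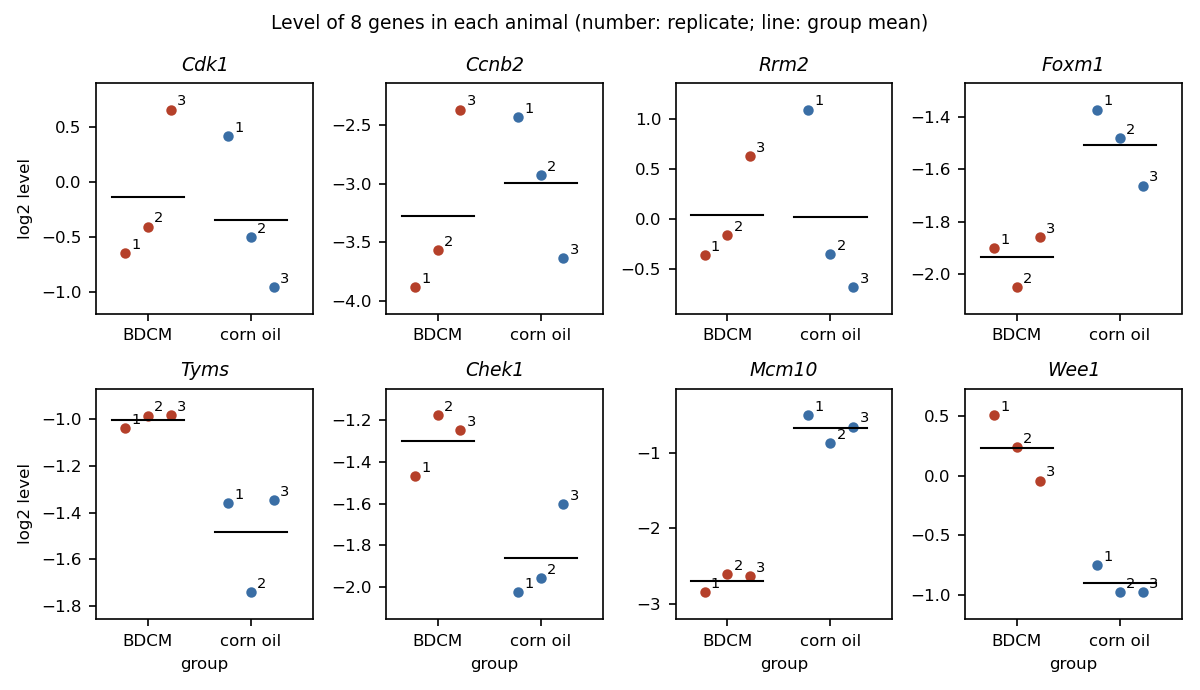
Log2 level of 8 genes in each rat, numbers giving the replicate and lines the group mean. Cdk1, Ccnb2 and Rrm2 are led by BDCM rat 3 and corn oil rat 1, while the groups of Foxm1, Tyms, Chek1, Mcm10 and Wee1 do not overlap.

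Of 21 other cyclins, kinases, pocket proteins and E2F genes 1 was higher and 3 were lower, against 5.96% and 3.41% of all features. Ccnd2, a D cyclin, rose by 0.70 (adjusted p = 0.0187). Rb1, the retinoblastoma protein that holds E2F in check, had levels of 0.055, 0.11 and 0.30 in BDCM rats 1 to 3, against 0.69, 0.95 and 0.87 in corn oil rats 1 to 3. The groups did not overlap, and Rb1 fell by 0.69 on the log2 scale (adjusted p = 0.0224). Tfdp2, a partner of E2F factors, fell by 0.72 (adjusted p = 0.0176), and Cdk2, the kinase of E and A cyclins, fell by 0.56 (adjusted p = 0.0435). With spike-in scaling these 3 were -0.20, -0.23 and -0.080, and none was called. In the 6 fits that each left out 1 rat, Tfdp2 passed in 3, Ccnd2 and Rb1 in 2 each, and Cdk2 in 0. Cdk2 did not pass with the mean over its probes either (-0.48, adjusted p = 0.076). None of 15 kinase inhibitors and arrest genes passed (0 by limma, 2 at an unadjusted p of 0.05, against 27.5% of all features), with a median of -0.14. Cdkn1a, the p53 target p21, had levels of 5.54, 5.56 and 5.69 in BDCM rats 1 to 3, against 6.05, 5.74 and 5.83 in corn oil rats 1 to 3. The BDCM rats lay just below the corn oil rats, with a difference of -0.28 (SE 0.111, adjusted p = 0.174); with spike-in scaling it was 0.21. A second Cdkn1a probe, well above background on all 6 arrays, had levels of 2.76, 2.97 and 1.36 in BDCM rats 1 to 3, against 3.60, 3.83 and 1.40 in corn oil rats 1 to 3. There the groups overlapped, and BDCM rat 3 and corn oil rat 3 were the lowest of the 6 rats.

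Of 41 measured markers of cells other than hepatocytes, on 8 lists, 3 were higher and 1 lower, a share close to the 9.36% of all features. No macrophage, stellate cell, neutrophil or B and plasma cell marker was called (0 of 7, 6, 3 and 3 by limma; 1, 0, 2 and 0 at an unadjusted p of 0.05). Of 8 T and NK cell markers, Cd3e and Cd2 were higher (adjusted p = 0.0262 and 0.0383), well above background in 3 of 3 BDCM rats and 0 of 3 corn oil rats, while the other 6 were well above background on all 6 arrays; the linear levels of the 8 summed to 2.68 to 3.27 in BDCM rats and 2.14 to 2.68 in corn oil rats. Of 5 measured cholangiocyte markers Epcam was higher by 1.12 (adjusted p = 0.0211), and the list summed to 2.49 to 3.80 in BDCM rats and 1.76 to 1.84 in corn oil rats. Of 6 hepatocyte markers Serpina1 and Cps1 were lower, with differences of -0.50 and -0.62, and of 4 sinusoidal endothelium markers Lyve1 was lower, with a difference of -0.56. All 5 erythroid precursor markers were below 0 and limma called none (3 at an unadjusted p of 0.05), with sums of 350 to 502 in BDCM rats and 525 to 780 in corn oil rats. None of the 9 marker lists had its highest mean level in both BDCM rat 3 and corn oil rat 1, the rats that led the mitosis genes. By gene, 2 of 6 hepatocyte, 2 of 6 stellate cell and 1 of 7 macrophage markers were led by both rats. No marker of the other lists was, where 13.6% of all features were. The part of any cell type in the cell cycle values was not tested.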

How the data were processed

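Feature Extraction 10.7 (Agilent) made the scanner files, per the submitters' processing notes and file headers. The processed intensity used here is linear and had its background subtracted before deposition, per the file headers. In the authors' deposited value table each value is a linear ratio of that signal to its array's 75th percentile, within 1% for at least 96.4% of probes on each array; it served as an alternative. Accessions were named through RefSeq symbols of GRCr8 (27460 of 61657 probes), used for names and promoters only, as the arrays were designed on rn4.

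Log2 processed intensity minus the array's 75th percentile was fitted with limma 3.58.1 in R 4.3.3 (lmFit, eBayes), two-sided, adjusted by Benjamini-Hochberg over 28995 features. Probes had to be well above background on all 3 arrays of a group, and the brightest stood for its gene. All SE, 95% intervals and adjusted p come from limma. The fit was run on simulated arrays that held no slide effect, so that run does not cover the partial confounding of slide and treatment.

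The members and lists were chosen with earlier results of these data known. Animal values are given for the extremes of each role, and for others chosen after their values were seen; of the further lists, Cdkn1a and genes past the threshold (at most 6 a list) are named. Alternatives changed the background correction (normexp on median signals), scaling, filter, probe rule, eBayes options, slide and replicate blocks, source table, and the rats included.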

Additional observations from a re-analysis of the deposited data

How the results depend on the processing

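The 39 genes had 0 calls in the main setting and 4 with normexp background correction, 1 with median centring, 17 with spike-in scaling, 1 with probes well above background on all 6 arrays and 1 with the mean over probes; leaving out 1 rat gave 0 to 1. In the other alternatives the count was 0. Each alternative was compared with the main setting, and no difference called in either of the 2 changed sign. Of the 39 genes, 26 changed sign against the main setting in at least 1 alternative, uncalled there. Between alternatives, called genes did change sign. Foxm1 was called at -0.34 with normexp and was 0.053 with spike-in scaling. Cdc6 was called at 0.82 with spike-in scaling and was -0.021 with normexp. Over all features the 2715 calls (1727 higher, 988 lower) became 12997 (12686 higher, 311 lower) with spike-in scaling, 609 (361, 248) with no filter, 350 (189, 161) with slide as a block, 120 (52, 68) on slide 1 alone, and 335 to 1232 (166 to 819 higher, 169 to 513 lower) without 1 rat. The 13 calls of the further cell cycle lists became 70 with spike-in scaling, 2 with no filter, 20 with trend and robust options, 2 with slide as a block, 0 on slide 1 alone and 1 to 6 without 1 rat. The replication median of 0.33 became 0.023 with normexp, 0.39 with median centring, 0.82 with spike-in scaling, 0.20 with the mean over probes, 0.14 with slide as a block and on slide 1 alone, and 0.20 to 0.46 without 1 rat. The mitosis median of 0.084 became 0.0061 with normexp, 0.57 with spike-in scaling, -0.20 with slide as a block and on slide 1 alone, and -0.14 to 0.31 without 1 rat. The count of mitosis genes led by BDCM rat 3 and corn oil rat 1 was 18 to 20 in every alternative that kept all 6 rats. Whether the replicate numbers of the labels pair the rats is not settled here. Deviations of same-numbered rats correlated at 0.092, 0.019 and 0.12 over features, and those of differently numbered rats at -0.098 to 0.0023. With the replicate number as a block, 353 features (198 higher, 155 lower), 3 genes of the further lists and none of the 39 were called. The causes of these changes were not tested. Only BDCM rat 1 shares a slide with the corn oil rats, so slide and treatment are partly confounded. Slide as a block and slide 1 alone therefore gave the same differences, each BDCM rat 1 against the corn oil rats. Spike-in scaling moved the median of all features to 0.48. The spike-in signal was lower on slide 2 than on slide 1, so that scaling shares this confounding.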
